A study of Mus musculus with 20 samples.

Results

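The comparison described here set a mouse cell line that carries 3 germ cell transcription factors against the sum of 3 lines that carry 1 of them each, after 24 h of induction. For each gene, the log2 differences of the Blimp1, Prdm14 and Tfap2c lines from the parental line were added up, and this sum was subtracted from the difference of the 3-factor line from the parental line. The result is called the departure from the sum here. A departure of 0 means that log2 changes add up, and a positive departure means that the 3-factor line read higher than the sum. Members are the genes whose mean was at or above 5 in all 5 day 1 groups, without Y-linked genes, Erdr1 and Mid1. This left 10163 members of 14010 genes tested. A further 3845 tested genes lay under the floor, and 2 above it, Erdr1 and the Y-linked Orly, were left out. The members were selected on the same day 1 group means that give the departure, so day 1 departures are given as a description with standard errors and without p-values.

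RNA was measured on 20 Affymetrix arrays, 2 for each of 10 groups, and the series text calls the pairs biological duplicates. All lines are labelled male, on a C57BL/6;129 background, and carry the reporters Blimp1-mVenus and stella-ECFP and the doxycycline-dependent activator Rosa26-rtTA. The parental clone carries nothing more. The Blimp1, Prdm14 and Tfap2c lines carry, each in a piggyBac vector under a tetO promoter, Avi-Blimp1 (clone #2-4), 3xFLAG-Prdm14 (clone #7-109) or V5-Tfap2c (clone #8-2), and the 3-factor line (clone #3-3) carries all of these. Each line is 1 clone, so a factor and the clone that carries it cannot be told apart. Day 1 groups are aggregates grown for 24 h in GK15 medium with 1.5 µg/ml doxycycline from 2000 cells per well, the parental line included. The other 5 groups are the epiblast-like cells (EpiLCs) from which the aggregates were made, taken at 36 h of differentiation from embryonic stem cells and before doxycycline. Day 1 aggregates without doxycycline were not analysed here.

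Blimp1, the protein of Prdm1, Prdm14 and AP2γ, the protein of Tfap2c, are transcription factors of primordial germ cells, the founders of eggs and sperm. In the embryo these cells arise from the epiblast, a pluripotent tissue held in its state by Nodal and FGF signals, and BMP and WNT signals start the germ cell programme. Blimp1 is known mainly as a repressor, Prdm14 as a regulator that favours naive pluripotency and opposes DNA methylation, and AP2γ as a factor that acts after Blimp1. EpiLCs are a culture model of the epiblast that can be turned into germ-cell-like cells.

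Values are log2 levels, with day 1 array medians of 4.60 to 4.86 and replicate correlations of 0.9661 to 0.9759 over all probe sets. Between 639 and 810 values per day 1 array were listed at 0. The number of arrays limits the precision. A departure joins 5 group means and counts the parental mean with a weight of 2, so its standard error (SE) was larger than that of a comparison of 2 groups, with a median of 0.207 over members. Epiblast markers had a summed linear level of 14117 to 23375 in the 5 day 1 groups, but did not move together. In the 3-factor line Pou3f1, Fgf5, Otx2 and Dnmt3b were below the parental line, Pou5f1 was level and Sox2 was above. Pou3f1 read 6.805 there against 11.68 in the parental line, and Sox2 12.545 against 10.705. Early germ cell markers summed to 641 to 692 in the parental and Tfap2c lines and to 2704 to 10139.8 in the other lines. Markers of fibroblasts or feeders summed to 917 to 1867 over the 5 groups, highest in the Blimp1 line, with Col1a1 and Postn below the filter level of 3.95 in every day 1 group. Endoderm markers summed to 138 to 183, with Afp and Ttr below that level, trophectoderm markers to 158 to 226, with Cdx2, Elf5 and Gata3 below it, neural markers to 543 to 743 and mesoderm markers to 67.5 to 86.3. Control probes for ribosomal RNA, actin and Gapdh had departures of −0.14 to 0.07. The clones also differed apart from their factors, and the Blimp1 line, although labelled male, read low for Y-linked genes. Its day 1 means were 0.98 for Eif2s3y and 2.40 for Uty, against 9.27 and 8.57 in the parental line, and those of the Prdm14 line were 2.28 and 4.36. Eif2s3y was also lower in the 3-factor line, at 6.51, and in the Tfap2c line, at 7.26, while Uty stood at 8.33 and 8.56 there. Erdr1 and Mid1 had day 1 means of 5.17 and 3.61 in the Blimp1 line and of at least 12.73 and 9.71 in the other 4 groups. In EpiLCs, before doxycycline, the Blimp1 line already read 1.68 for Eif2s3y, 2.62 for Uty, 4.58 for Erdr1 and 3.11 for Mid1. Most departures above the sum rest on a fall in the Blimp1 line, and the part of these clone differences in them was not tested.

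Most members were near the sum. The median departure of members was 0.06, with the middle of the distribution from −0.16 to 0.25, and 9945 of 10163 members (97.9%) lay within 1 log2 unit of 0. This share covers members whether or not they changed in any line, so it does not show how far changes add up. A gene was called when its adjusted p in limma, over all 14010 genes, was under 0.05 and its departure was at least 1 in size. By this mark 52 members lay above the sum, where 0.585% of all tested genes were called, and 35 lay below it, where 0.307% were called. The shares of members were 0.512% and 0.344%. Since the floor used the same means, nothing is read from these shares, and the calls serve to choose the 87 genes described here.

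**Figure D1:**
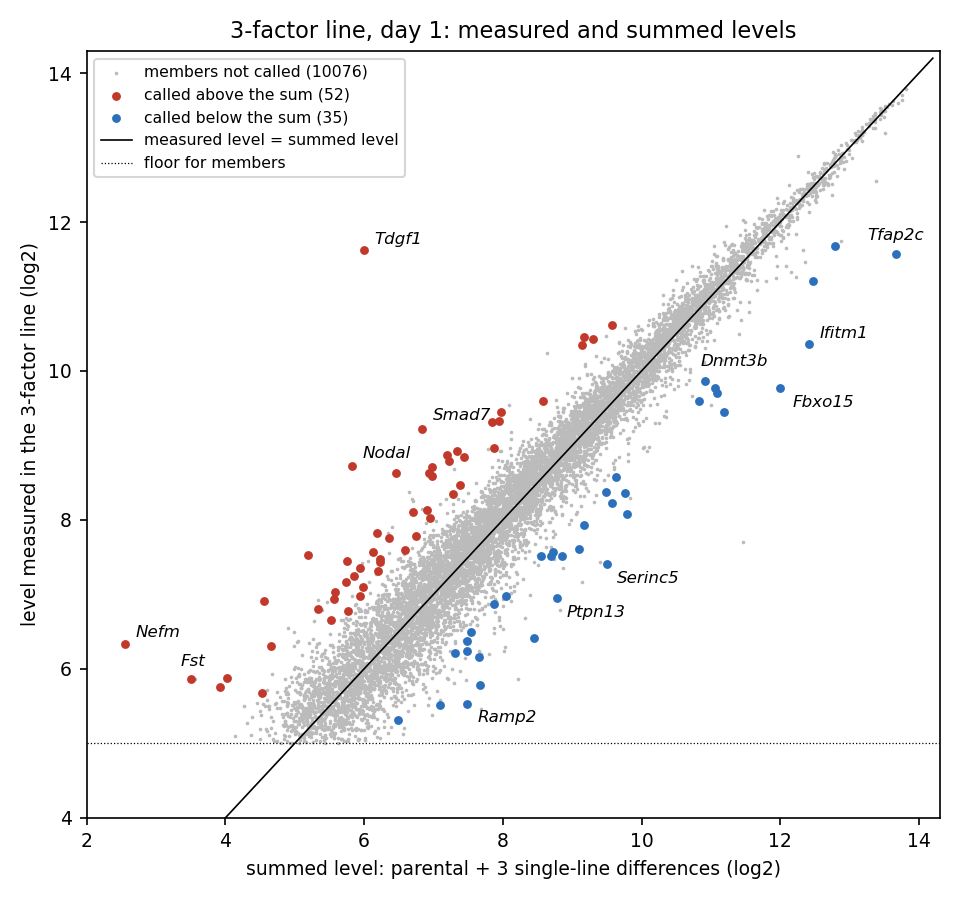
Level measured in the 3-factor line on day 1 (vertical axis, log2) against the summed level (horizontal axis, log2: parental mean plus the differences of the Blimp1, Prdm14 and Tfap2c lines), 1 point per member. The solid line marks equality, the dotted line the floor of 5; 52 called genes lie above the line, Tdgf1 and Nefm farthest, and 35 lie below it, Tfap2c and Fbxo15 among them.

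Among the 87 called genes, departures in both directions mostly meant a smaller change than the sum. The floor left out genes under 5 in any line, among them any gene read above 5 only with 3 factors. The sum and the departure also share the single-line and parental means with opposite sign. The counts below are therefore a description of these genes. Of the 52 genes above the sum, 40 had a summed fall of at least 1 and a 3-factor level that fell less or not at all, with departures of 1.01 to 5.62 and a median of 1.44. For 36 of these 40 the 3-factor difference lay between the single-line differences, 0 included. Of the 35 genes below the sum, 24 had a summed rise of at least 1 and a smaller rise or none in the 3-factor line, with departures of −2.24 to −1.01 and a median of −1.32, and 21 of these lay within the range of the single lines. In total 59 of the 87 genes had a 3-factor difference within that range. The rest were 11 other genes above the sum, at 1.03 to 1.61, 1 higher level with a sum within 1 of 0, 7 lower levels with a sum within 1 of 0, at −1.96 to −1.06, 1 fall larger than a summed fall, and 3 others below. For 7 genes above the sum the summed level itself lay under 5, and for 3 of them, Nefm, Fst and Hs6st2, it lay under the filter level of 3.95, the level under which a gene was not tested.

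The Nodal pathway held the gene with the largest departure. Nodal is a secreted ligand that keeps the epiblast pluripotent, and Tdgf1 (Cripto), a cell surface protein, is its coreceptor. Tdgf1 (chromosome 9) read 12.18 and 12.08 in the parental arrays, 12.19 and 12.22 in the Tfap2c line, 5.87 and 5.87 in the Blimp1 line, 12.13 and 12.24 in the Prdm14 line and 11.70 and 11.54 in the 3-factor line. The Blimp1 line stood alone at a low level, and the 3-factor arrays lay just under the other 3 lines without overlap. With a summed level of 6.00, the departure was 5.62 ± 0.15 (SE). The 3-factor line was 5.75 above the Blimp1 line (95% interval 5.58 to 5.92) and differed from the Prdm14 line by −0.57 (−0.73 to −0.40).

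Nodal (chromosome 10) read 10.51 and 10.22 in the parental line, 10.59 and 10.49 in the Tfap2c line, 7.30 and 7.68 in the Blimp1 line, 8.55 and 8.51 in the Prdm14 line and 8.81 and 8.63 in the 3-factor line. All arrays of the Blimp1, Prdm14 and 3-factor lines were below all arrays of the parental and Tfap2c lines. The 3-factor level was close to that of the Prdm14 line, with a difference of 0.19 (95% interval −0.11 to 0.49). The summed level was 5.83 and the departure 2.89 ± 0.28 (SE).

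Smad7, an inhibitor inside the cell of Nodal and BMP signals that these signals themselves induce, read 9.32 and 9.28 in the parental line and 7.16 and 7.22 in the Blimp1 line. Its levels were 9.42 and 9.30 in the Tfap2c line, 8.86 and 8.92 in the Prdm14 line and 9.25 and 9.20 in the 3-factor line. As for Tdgf1, the Blimp1 line alone was far lower, and the departure was 2.39 ± 0.21 (SE). Fst (follistatin), a secreted antagonist of activins, behaved differently: it read 9.80 and 9.23 in the parental line, 9.59 and 9.73 in the Tfap2c line, 6.71 and 6.84 in the Blimp1 line, 6.14 and 6.07 in the Prdm14 line and 5.81 and 5.93 in the 3-factor line. The 3-factor arrays were the lowest of all, yet the sum of 3.51 was lower still, and the departure of 2.36 ± 0.43 (SE) rests on a summed level below the filter.

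Of 14 members in the list for Nodal and Activin signalling, those 4 were called above the sum and 0 below, with a list median of 0.24 against 0.06 for all members. Other members were near the sum. The receptors Acvr1b and Acvr2b had departures of 0.23 and −0.30, the signal carriers Smad2 and Smad3 of −0.02 and 0.00, and their partner Foxh1 of 0.21. Foxh1 was lower by 1.77 in the Prdm14 line and by 1.40 in the 3-factor line. The feedback inhibitor Lefty2 had a departure of 1.60 ± 0.41 (SE), which did not pass the call, and Lefty1 of 0.51 ± 0.33 (SE). The proteases that process Nodal, Furin and Pcsk6, stood at −0.28 and 0.26.

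**Figure D2:**
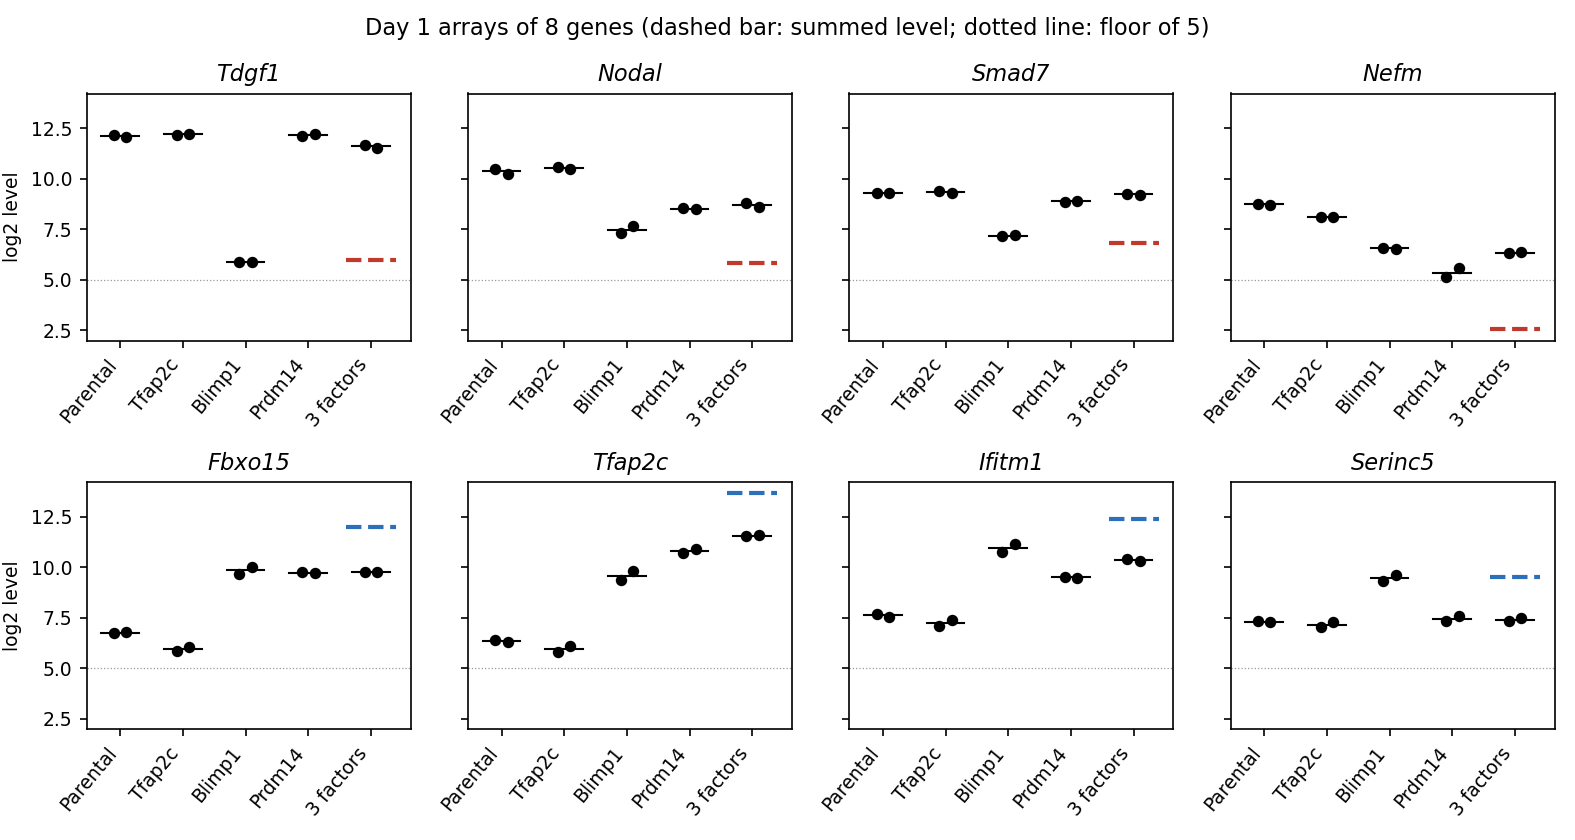
Day 1 log2 levels of 8 genes in each line, with 1 black point per array, a bar at the mean of 2 arrays, and a dashed bar at the level that the sum of the single lines gives for the 3-factor line (red where the measured level was above it, blue where below). Tdgf1, Smad7 and Serinc5 in the 3-factor line lay near the parental level while the Blimp1 line differed, and Fbxo15 reached the same level in the Blimp1, Prdm14 and 3-factor lines.

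Nefm (chromosome 14), the medium neurofilament subunit, had the next largest departure above the sum after Tdgf1. It read 8.77 and 8.69 in the parental line, 8.12 and 8.10 in the Tfap2c line, 6.59 and 6.53 in the Blimp1 line, 5.12 and 5.56 in the Prdm14 line and 6.32 and 6.36 in the 3-factor line. Levels in the 3-factor line lay between those of the Prdm14 and Blimp1 lines with no overlap, and the departure was 3.79 ± 0.25 (SE) from a sum of 2.55. Nefl, the light subunit, which lies on the same chromosome, had a departure of 1.73 ± 0.27 (SE), and its 3-factor level differed from that of the Prdm14 line by −0.02 (95% interval −0.31 to 0.27). Nes (nestin) had a departure of 1.65 ± 0.33 (SE) at its brightest probe set, but −0.44 ± 0.30 (SE) at its other readable one, and its call was kept in 2 of the 10 fits that each left out 1 day 1 array. Of 11 neural members in the list, Nes was the only one called, and the list median was −0.60.

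Several other genes above the sum were lower in both the Blimp1 and Prdm14 lines. Radil, which acts in adhesion and migration, and Pkdcc, a secreted kinase, had departures of 2.36 ± 0.30 and 2.35 ± 0.25 (SE). Pkdcc read 8.64 and 8.42 in the parental line, 8.97 and 8.96 in the Tfap2c line, 6.16 and 6.17 in the Blimp1 line, 7.11 and 7.12 in the Prdm14 line and 7.46 and 7.61 in the 3-factor line. The 3-factor arrays were thus above both lines in which the gene was low. A second readable Pkdcc probe set gave a smaller departure, 1.11 ± 0.27 (SE). Hs6st2, a heparan sulfate sulfotransferase on the X chromosome, read 5.76 and 5.55 in the Prdm14 line and read 5.61 and 5.91 in the 3-factor line. The 3-factor and Prdm14 arrays overlapped, and the departure of 1.84 ± 0.32 (SE) was against a sum of 3.92, below the filter level. Nfkbiz, a regulator of NF-κB in the nucleus, had a departure of 1.69 ± 0.25 (SE), yet its 2 other readable probe sets had the opposite sign.

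Fgf4, the main FGF ligand of pluripotent cells, was lower in the Blimp1 and Tfap2c lines and higher in the Prdm14 line. Its levels were 8.43 and 8.52 in the parental line, 7.47 and 7.65 in the Tfap2c line, 7.07 and 7.11 in the Blimp1 line, 9.48 and 9.51 in the Prdm14 line and 9.04 and 8.71 in the 3-factor line. The 3-factor arrays were above the parental arrays and below those of the Prdm14 line, with a departure of 1.68 ± 0.24 (SE). Without the Tfap2c line in the sum the departure was 0.77 ± 0.17 (SE) and the call was lost. A second probe set read 1.43 and another had the opposite sign. Id3, a transcriptional inhibitor induced by BMP, read 8.43 and 8.79 in the parental line, 8.96 and 8.82 in the Tfap2c line, 7.40 and 7.70 in the Blimp1 line, 8.71 and 8.81 in the Prdm14 line and 9.29 and 9.61 in the 3-factor line. Its 3-factor arrays were the highest of all, and the departure was 1.47 ± 0.28 (SE). Cpt1a, which brings long-chain fatty acids into mitochondria, was the gene with a higher 3-factor level where the sum was near 0: it was lower by 1.07 in the Blimp1 line, higher by 0.94 in the Prdm14 line and higher by 1.33 in the 3-factor line, a departure of 1.59 ± 0.31 (SE).

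Chac1, a glutathione-degrading enzyme of the stress response to missing amino acids, read 8.14 and 7.83 in the Blimp1 line, 8.82 and 8.45 in the 3-factor line, 8.87 and 8.98 in the Prdm14 line and 9.66 and 9.69 in the Tfap2c line, with a parental mean of 9.83 ± 0.25 (SD, n = 2). The Blimp1 arrays were lowest, and the departure was 1.70 ± 0.34 (SE). Among 18 members of the p53 and stress list it was the only gene called, with a list median of 0.09. Pck2, Cth and Bcat1, enzymes of gluconeogenesis from amino acids, cysteine synthesis and branched-chain amino acid breakdown, were also above the sum; these 3 were picked out after their values were seen. Pck2 had a departure of 1.48 ± 0.30 and Bcat1 of 1.20 ± 0.15 (SE). Bcat1 was lower by 1.43 in the Blimp1 line and by 0.41 in the 3-factor line, but its 2 other readable probe sets did not share 1 sign.

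In the set below the sum, Tfap2c itself had the highest summed level. It read 6.38 and 6.29 in the parental line, 5.80 and 6.08 in the Tfap2c line, 9.38 and 9.81 in the Blimp1 line, 10.70 and 10.91 in the Prdm14 line and 11.55 and 11.58 in the 3-factor line. The 3-factor arrays were the highest, and the arrays of the Tfap2c line were the lowest, so this probe set gave no sign of the transgene in the Tfap2c line. Whether it reads the transgene was not tested. The sum of 13.67 is close to the highest value in the table, 13.83, and the departure was −2.11 ± 0.26 (SE). On a linear scale, where the summed differences are of levels rather than of their logarithms, the same comparison for Tfap2c, Ifitm3 and Dnmt3b had the opposite sign. For a gene that fell in the single lines the linear sum lies under the log2 one. Where such a gene is above the log2 sum, its linear sign is therefore fixed and says nothing further. That does not hold for Dnmt3b, which fell and was below the log2 sum, so its sign depends on the scale.

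Fbxo15, an F-box protein gene active in pluripotent cells, reached like levels in 3 lines. It read 6.75 and 6.78 in the parental line, 5.87 and 6.04 in the Tfap2c line, 9.68 and 10.01 in the Blimp1 line, 9.75 and 9.71 in the Prdm14 line and 9.75 and 9.78 in the 3-factor line. The 3-factor line differed from the Blimp1 line by −0.08 (95% interval −0.41 to 0.25) and from the Prdm14 line by 0.04 (−0.30 to 0.37), and the departure was −2.24 ± 0.30 (SE). Of 14 naive pluripotency members, Fbxo15 was the only one called, and the list median was −0.18.

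Ifitm1 and Ifitm3, neighbouring genes for membrane proteins found at the surface of early germ cells, were both below the sum. Ifitm1 (chromosome 7) read 7.70 and 7.56 in the parental line, 7.09 and 7.37 in the Tfap2c line, 10.74 and 11.14 in the Blimp1 line, 9.54 and 9.47 in the Prdm14 line and 10.39 and 10.33 in the 3-factor line. Its 3-factor arrays lay between the Prdm14 and Blimp1 arrays, with a departure of −2.06 ± 0.26 (SE). Ifitm3 read 8.30 and 8.12 in the parental line, 7.84 and 7.96 in the Tfap2c line, 9.87 and 10.13 in the Blimp1 line, 11.25 and 11.37 in the Prdm14 line and 11.67 and 11.68 in the 3-factor line. Here the 3-factor arrays were the highest, and the departure was −1.12 ± 0.22 (SE). These were the 2 called genes among 13 early germ cell members, whose median was −0.44. Dppa3 (stella), the gene of the second reporter, had a departure of −0.89 ± 0.56 (SE) and was not called.

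Serinc5, a membrane protein of the serine incorporator family, was the counterpart of Tdgf1 among genes that rose. It read 9.33 and 9.62 in the Blimp1 line, while all other day 1 arrays lay between 7.03 and 7.57, those of the 3-factor line at 7.34 and 7.48. The departure was −2.09 ± 0.27 (SE). Abcg1, a cholesterol exporter, read 5.26 and 5.37 in the parental line, 7.51 and 7.82 in the Blimp1 line, 6.21 and 5.87 in the Prdm14 line and 6.35 and 6.47 in the 3-factor line, with a departure of −2.04 ± 0.29 (SE); its other readable probe set had the opposite sign. Lef1, a transcription factor of the WNT pathway, was higher than in the parental line by 1.63 with Blimp1, 2.18 with Prdm14 and 2.02 with all factors, a departure of −1.75 ± 0.28 (SE). It was the only gene called among 9 WNT members. Cdh2 (N-cadherin), a cell adhesion gene, was the only gene called among 14 adhesion and epithelium members, higher by 0.87, 1.13 and 0.82, with a departure of −1.34 ± 0.26 (SE).

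Epas1, which encodes a subunit of the hypoxia-inducible factors, was high where Prdm14 was carried. It read 5.56 and 5.33 in the parental line, 5.23 and 5.11 in the Tfap2c line, 6.31 and 6.48 in the Blimp1 line, 10.36 and 10.46 in the Prdm14 line and 9.79 and 9.62 in the 3-factor line. In the 3-factor line it was below the Prdm14 line without overlap, the departure was −1.38 ± 0.30 (SE), and it turned to 0.36 when all probe sets of the gene were averaged. Dmrt1, a regulator of germ cells and sex determination, had a departure of −1.40 ± 0.26 (SE). Peg3, an imprinted zinc finger gene chosen here after its values were seen, was higher by 1.45 with Blimp1, 1.28 with Prdm14 and 1.38 with all factors, a departure of −1.26 ± 0.18 (SE), with −1.27 and −1.21 at 2 more probe sets. Faim2, an inhibitor of Fas-induced death, and Ugdh, which makes the sugar precursor of hyaluronan, had departures of −1.89 ± 0.37 and −1.71 ± 0.32 (SE).

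**Figure D3:**
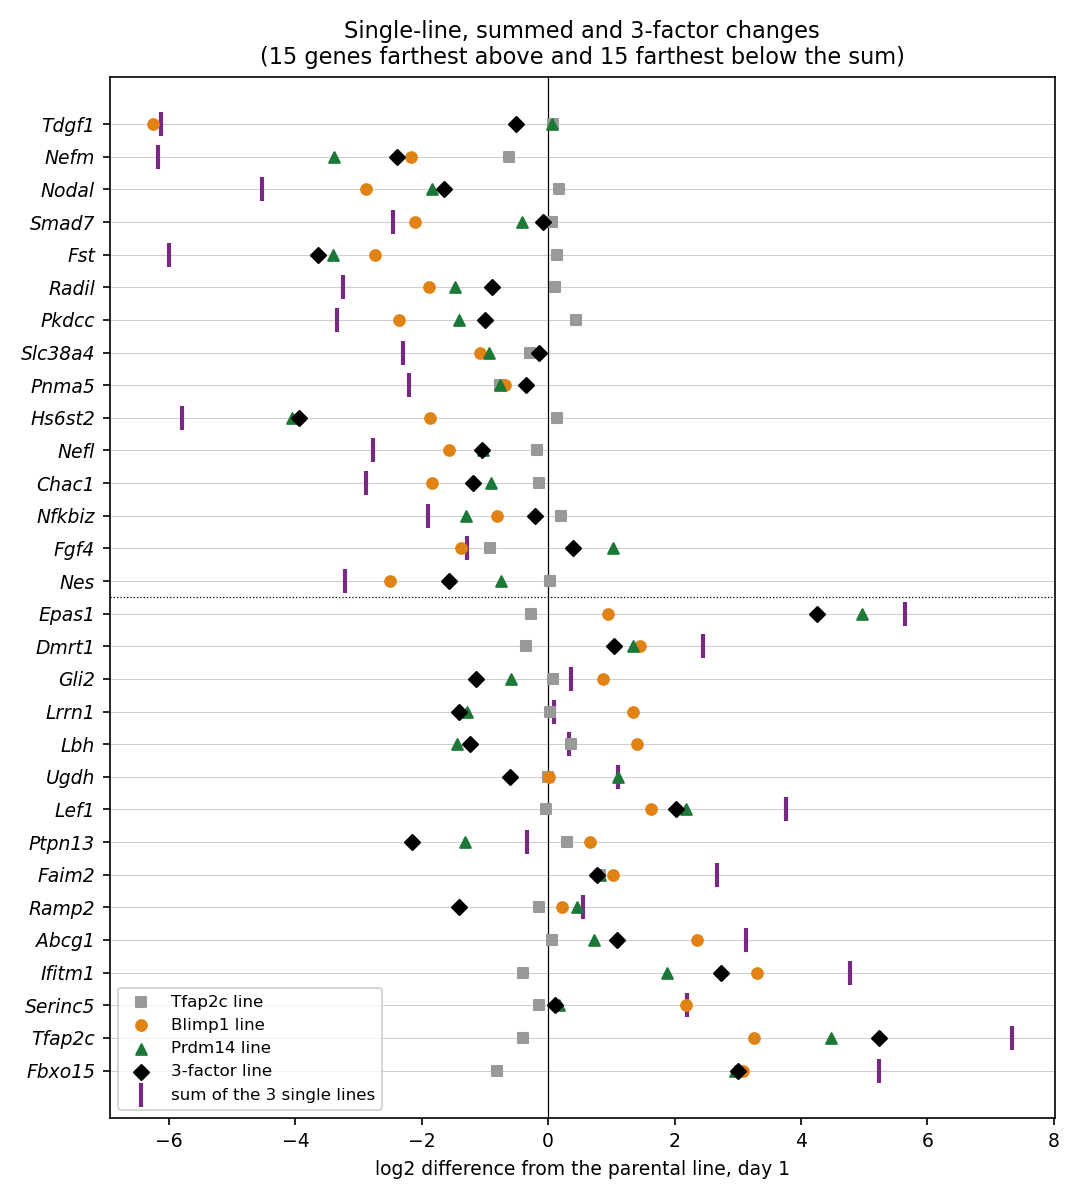
Log2 differences from the parental line on day 1 for the 15 named genes farthest above the sum (upper block) and the 15 farthest below it (lower block). Symbols show the Tfap2c, Blimp1, Prdm14 and 3-factor lines and a purple bar shows the sum of the 3 single lines; the 3-factor symbol mostly lies among the single-line symbols. It lies to the left of all of them for Fst, Ramp2, Faim2, Ptpn13, Ugdh, Lrrn1 and Gli2, and to the right of all of them for Slc38a4, Pnma5 and Tfap2c.

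For 7 genes the 3-factor line was lower by at least 1 although the sum was near 0. Ramp2, which partners the receptor for adrenomedullin, read 7.04 and 6.85 in the parental line, 6.63 and 6.98 in the Tfap2c line, 7.11 and 7.23 in the Blimp1 line, 7.27 and 7.54 in the Prdm14 line and 5.40 and 5.67 in the 3-factor line. Its 3-factor arrays were below all other arrays, while the single-line differences were 0.23, 0.46 and −0.14. The departure was −1.96 ± 0.27 (SE), and the 3-factor line was lower than the Blimp1 line by 1.64 (difference −1.64, 95% interval −1.93 to −1.34).

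Gli2 and Ptch1 belong to the Hedgehog pathway, as a transcription factor at its end and as the receptor that is also its target. Gli2 read 8.78 and 8.70 in the parental line, 8.94 and 8.70 in the Tfap2c line, 9.60 and 9.63 in the Blimp1 line, 8.07 and 8.22 in the Prdm14 line and 7.68 and 7.53 in the 3-factor line. The 3-factor arrays were the lowest and the Blimp1 arrays the highest, with a departure of −1.50 ± 0.18 (SE), and −1.69 ± 0.25 (SE) at a second probe set. Ptch1, named after its values were seen, was higher by 0.93 in the Blimp1 line and by 0.51 in the Prdm14 line and was 0.10 lower in the 3-factor line, a departure of −1.29 ± 0.20 (SE).

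Ptpn13, a tyrosine phosphatase, was higher by 0.67 in the Blimp1 line, lower by 1.31 in the Prdm14 line and lower by 2.16 in the 3-factor line, with a departure of −1.83 ± 0.30 (SE). Lbh and Lrrn1, a transcriptional regulator and a leucine-rich repeat membrane protein, had the same opposed pattern: they were higher by 1.41 and 1.34 in the Blimp1 line and lower by 1.44 and 1.28 in the Prdm14 line. In the 3-factor line they were lower by 1.24 and 1.41, like the Prdm14 line. Nr6a1 (GCNF), a nuclear receptor that represses pluripotency genes, read 10.13 and 10.08 in the parental line, 10.21 and 10.13 in the Tfap2c line, 10.19 and 10.11 in the Blimp1 line, 9.60 and 9.44 in the Prdm14 line and 8.45 and 8.69 in the 3-factor line. Its lowest arrays were those of the 3-factor line, with a departure of −1.06 ± 0.20 (SE), and a second readable probe set gave −0.95 ± 0.13 (SE).

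Dnmt3b, a de novo DNA methyltransferase of the epiblast, was the gene whose fall was larger than a summed fall. It read 13.18 and 13.24 in the parental line, 13.20 and 13.23 in the Tfap2c line, 12.98 and 12.97 in the Blimp1 line, 11.19 and 11.09 in the Prdm14 line and 10.08 and 9.66 in the 3-factor line. All other arrays were above those of the 3-factor line, and the departure was −1.04 ± 0.21 (SE), just past the limit of 1. The call was kept in 1 of the 10 fits that each left out 1 day 1 array, with departures of −1.25 to −0.83, and on a linear scale the departure was positive. A further Dnmt3b probe set gave −0.78 ± 0.37 (SE). Of 14 members in the DNA methylation list Dnmt3b was the only one called, and Dnmt3a stood at 0.74 ± 0.53 (SE).

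The other 2 factor genes were not members. Prdm1 had a parental mean of 4.96, under the floor, and its 3-factor level of 8.67 was near the sum of 8.77, a departure of −0.10 ± 0.26 (SE). Its mean was 6.36 in the Blimp1 line and 7.31 in the Prdm14 line. Whether this probe set reads the transgene was not tested. Prdm14 was read by 1 dim probe set, and its departure of −0.02 had an SE of 2.31, so it checks nothing. Primed epiblast genes had 1 of 22 members called above the sum, Nodal, and 3 below, Lef1, Cdh2 and Dnmt3b, with a median of −0.08. Pou3f1, which was lower by 4.88 in the 3-factor line, had a departure of −0.78 ± 0.22 (SE), and Sox2, a core pluripotency factor, of −0.84 ± 0.18 (SE). Of 15 core pluripotency members, Tdgf1 and Fgf4 were called above the sum, with a median of 0.37. Id3 and Smad7 were called among 11 BMP members, with a median of 0.18, Fgf4 among 17 FGF and ERK members, and Epas1 among 20 hypoxia and glycolysis members.

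Lists with no called member had medians near that of all members in most cases. They included 27 cell cycle genes (median −0.02), 24 histone modifiers (0.00), 19 cholesterol and fatty acid synthesis genes (0.11), 9 Notch genes (−0.19), 8 LIF and JAK-STAT genes (0.18), 5 endoderm genes (−0.03), 5 primitive streak and mesoderm genes (0.20) and 5 trophectoderm and surface ectoderm genes (0.20). The Hox list and the list for the 2-cell-like state had 1 member each, at 0.18 and 0.39. Larger medians were seen for 11 later germ cell and meiosis genes (0.41), for 11 extracellular matrix genes (−0.38), for 3 retinoic acid genes (−0.42) and for 4 fibroblast or feeder genes (−1.36), of which Dcn, Acta2 and Col1a2 were below −1. The part of other cell types in the departures was not tested.

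By size of change, the Blimp1 and Prdm14 lines made up the sum. Among the 52 genes above the sum the largest single-line difference was a lower level in the Blimp1 line for 39 genes, the Prdm14 line for 10 and the Tfap2c line for 3, Pnma5, H13 and Zc3hav1. Among the 35 genes below, it was a higher level in the Blimp1 line for 21, a higher level in the Prdm14 line for 10 and a lower level in the Prdm14 line for 4. For 21 genes above the sum, the Blimp1 line was lower by at least 1 while the Prdm14 and Tfap2c lines stayed within 1 of the parental line. In the Tfap2c line on its own, 2 members were called against the parental line, where 0.0286% of all tested genes were called. These means are terms of the sum, so the calls are a description. H13, a signal peptide peptidase, was lower by 1.72 on day 1, and its EpiLC arrays already read 6.51 and 6.82 in the Tfap2c line against 8.11 and 8.43 in the parental line. Gnptab, which tags enzymes for lysosomes, was lower by 1.02. Leaving the Tfap2c line out of the sum kept the call of 65 of the 87 genes.

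The same contrast in EpiLCs measures how far the clones departed from the sum before doxycycline. EpiLC arrays took no part in the floor, but they entered the choice of the brightest probe set and the spread that limma shares over groups. In EpiLCs the median departure of members was −0.01, and 99.1% of members lay within 1 of 0. By limma, 2 members were called above the sum, where 0.0428% of all genes were called, and 0 below, where 0% were called; 578 members had an unadjusted p under 0.05. The 2 were Ufsp2, a protease of the ufmylation pathway, with a departure of 2.16 ± 0.13 (SE, limma adjusted p = 5.81e-06), and Slc38a4, an amino acid transporter that is imprinted, with 1.98 ± 0.28 (SE, limma adjusted p = 0.035). Ufsp2 read 7.86 and 7.72 in parental EpiLCs and 6.57 to 7.08 in the EpiLCs of the 4 other lines, so all 4 were below the parental arrays. Slc38a4 read 9.36 and 9.27 in parental EpiLCs, 7.84 and 7.86 in the Prdm14 line and 8.37 to 9.08 in the other 3 lines. Their day 1 departures were 1.64 and 2.17.

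For the other called genes the EpiLC departures were mostly small. Tdgf1 stood at 0.04 ± 0.15 (SE), Nodal at −0.24 ± 0.28, Smad7 at 0.19 ± 0.21 and Nefm at 0.68 ± 0.25. Over the 87 genes the sign in EpiLCs equalled that on day 1 for 56, and for 5 the EpiLC departure was at least 50% of the day 1 one in the same direction. Pnma5, an X-linked gene of retrotransposon origin, was among these, at 2.28 ± 0.40 (SE, limma adjusted p = 0.137). An unadjusted limma p under 0.05 in EpiLCs was seen for 13 of the 87 and for 578 of all 10163 members. The calls of the 87 used the same pooled spread as the EpiLC contrast. They favour genes with a small spread at both stages, so these shares are not compared.

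When the EpiLC departure was subtracted from the day 1 departure, 10 members were called above 0, where 0.121% of all genes were called, and 4 below, where 0.0428% were called. These values share the day 1 arrays with the choice of members and are a description. Tdgf1 stood at 5.59 ± 0.22 (SE), Nodal at 3.13 ± 0.39, Nefm at 3.11 ± 0.36, Tfap2c at −2.96 ± 0.37 and Ramp2 at −2.40 ± 0.38. Of the 87 genes, 85 kept their sign after the subtraction and 11 were called.

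**Figure D4:**
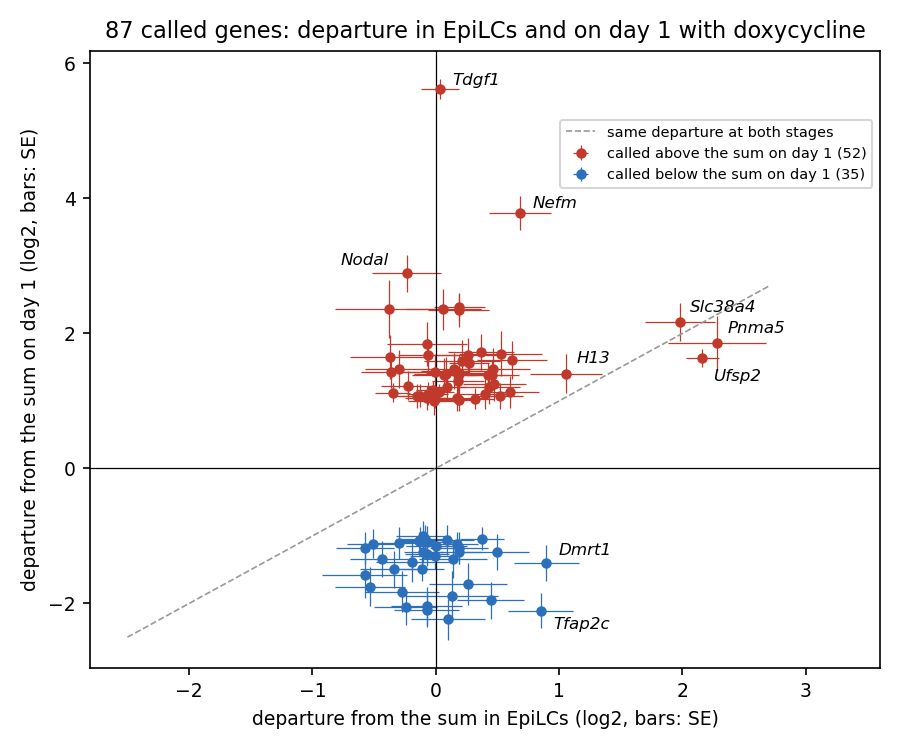
Departure from the sum on day 1 with doxycycline (vertical axis) against that in EpiLCs before doxycycline (horizontal axis), log2, for the 87 called genes, with bars of 1 SE each way. Most points lie near 0 on the horizontal axis, while Slc38a4, Pnma5 and Ufsp2 lie near or past the dashed line of equal departure.

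Other probe sets and single arrays bear on how far each gene can be read. The 87 genes had 89 further probe sets, of which 38, from 30 genes, met the floor of 5. Of these 38, 30 had the sign of the main probe set and 19 of them a size of at least 1. For Smad7 and Nodal the second probe set gave 2.43 ± 0.20 and 2.57 ± 0.25 (SE), and for Cpt1a 1.83 ± 0.33. When each of the 10 day 1 arrays was left out in turn, 23 of the 87 genes kept their call throughout, 15 above the sum and 8 below. These included Tdgf1, Nefm, Nodal, Smad7, Radil, Pkdcc, Slc38a4, Fgf4 and Bcat1 above, and Tfap2c, Fbxo15, Serinc5, Ifitm1, Ramp2, Gli2 and Peg3 below. Without parental replicate 1 the counts were 20 and 12. In most of these leave-one-out fits the call was lost for Epas1, Cdh2, Faim2, Lbh, Pck2, Ifitm3, Chac1, Id3 and Pnma5, among others, though their signs were kept. At the floor itself, Faim2 (lowest mean 5.00) and Dnajb3 (5.04, departure −1.18) were just inside, and Reep6 (4.95, departure 1.09) and Zfp936 (4.87, departure 1.66) just outside.

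Promoter sequences were available for 37 of the 52 genes above the sum and 23 of the 35 below. A Blimp1 motif, AGNGAAAG on either strand, lay within 250 bases before to 50 bases after the start site in 6 of the 37 (16.2%) and 2 of the 23 (8.7%), in 8.83% of 8308 members with a sequence and in 9.91% of all 27025 genes in the table. A Tfap2 motif, GCCNNNGGC, lay in 14 of the 37 (37.8%), 4 of the 23 (17.4%), 29.7% of members and 18.5% of all genes. The Prdm14 motif GGTCTCTAA was in 0 of both sets, in 0.229% of members and in 0.3% of all genes. A match describes letters in a window and is no measure of binding. Shown are the Tdgf1 promoter, as the gene with the largest departure, and 3 promoters that hold the Blimp1 motif: Mapkapk3 and Pck2 from the genes above the sum and Nr6a1 from those below. They are RefSeq sequences of GRCm38.p6 on the strand of the gene, 5′ to 3′, with motif matches in capitals. Tdgf1 is at chr9:110946109-110946408 (minus strand), with no match in the window, Mapkapk3 at chr9:107289347-107289646 (minus strand), Pck2 at chr14:55540016-55540315 (plus strand) and Nr6a1 at chr2:38784466-38784765 (minus strand).
Tdgf1: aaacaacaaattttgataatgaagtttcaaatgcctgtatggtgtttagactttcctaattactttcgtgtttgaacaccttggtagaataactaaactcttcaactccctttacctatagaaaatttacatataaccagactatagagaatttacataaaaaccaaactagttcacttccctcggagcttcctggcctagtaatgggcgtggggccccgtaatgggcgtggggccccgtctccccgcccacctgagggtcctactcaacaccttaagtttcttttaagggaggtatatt
Mapkapk3: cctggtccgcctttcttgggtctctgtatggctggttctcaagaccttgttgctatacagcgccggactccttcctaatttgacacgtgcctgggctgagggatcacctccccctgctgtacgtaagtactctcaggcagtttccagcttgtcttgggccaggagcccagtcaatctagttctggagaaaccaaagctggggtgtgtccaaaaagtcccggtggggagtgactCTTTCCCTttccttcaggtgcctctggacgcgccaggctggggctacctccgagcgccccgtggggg
Pck2: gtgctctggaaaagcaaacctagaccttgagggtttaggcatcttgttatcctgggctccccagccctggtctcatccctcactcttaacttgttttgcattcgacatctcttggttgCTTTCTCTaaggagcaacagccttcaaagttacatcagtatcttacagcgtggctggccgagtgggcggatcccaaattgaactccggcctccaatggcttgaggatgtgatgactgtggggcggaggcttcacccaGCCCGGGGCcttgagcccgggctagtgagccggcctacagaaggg
Nr6a1: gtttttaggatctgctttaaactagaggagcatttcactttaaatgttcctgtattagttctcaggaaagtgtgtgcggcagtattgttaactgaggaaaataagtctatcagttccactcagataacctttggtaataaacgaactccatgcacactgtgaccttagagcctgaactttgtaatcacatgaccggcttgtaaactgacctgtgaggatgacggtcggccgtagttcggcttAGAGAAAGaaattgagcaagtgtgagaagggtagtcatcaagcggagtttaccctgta
Mapkapk3 and Nr6a1 each had a further promoter sequence, at another start site, without a Blimp1 motif, and the sequence with the motif is shown. In the sequences shown, the capitals in Mapkapk3 begin 17 bases before the start site and those in Nr6a1 8 bases before it. In Pck2 the Blimp1 motif begins 132 bases before the start site and the Tfap2 motif lies after it. Mapkapk3, a kinase activated by p38, was lower by 1.11 with Blimp1, 1.00 with Prdm14 and 0.98 with all factors, a departure of 1.12 ± 0.14 (SE). Pck2 was lower by 1.19, 0.60 and 0.49 in the same lines.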

How the data were processed

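The table deposited by the authors holds 1 log2 value per probe set and array. The log base was inferred from the range of the values, while the authors' normalization, probe summary and programs are not stated in the labels or headers. Of 45101 probe sets, 34945 had 1 gene in the platform annotation, and 34741 matched RefSeq (GRCm38.p6) by Entrez identifier. Probe sets were kept when the highest group mean reached the 40th percentile, 3.95, and a gene was represented by its brightest probe set. Limma 3.58.1 fitted 10 group means to all 20 arrays (R 4.3.3, 10 residual and 1.79 prior degrees of freedom) with Benjamini-Hochberg adjustment over 14010 genes. P-values are two-sided and measure the spread between the 2 arrays of a group, whose separate origin is stated only as biological duplicates. Python 3.11.15, pandas 2.3.3 and matplotlib 3.10.9 were used for sequences and plots. The script was tested on simulated data.

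The members, the lists and the comparisons were chosen with earlier results of these data known. Named genes are the 15 largest departures each way among called members, without clone names, every list gene that was called, and the genes of the factors; other names were chosen after their values were seen. No pair of arrays held identical values. Alternatives covered the arrays fitted, scaling, probe set choice, filter, floor, variance model, replicate number as a block and each array left out in turn. Of these, the sum without the Tfap2c line and a floor on the summed level were chosen after seeing the data.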

Additional observations from a re-analysis of the deposited data

Results flagged for a closer look

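For 14 members the departure from the sum changed between EpiLCs and day 1, by a limma contrast of the 2 departures that shares the day 1 arrays with the choice of members. The day 1 departure minus the EpiLC departure was 5.59 for Tdgf1, 3.13 for Nodal, 3.11 for Nefm, 2.20 for Smad7 and 2.17 for Pkdcc. It was 1.47 for Mapkapk3, 1.18 for Map3k5, which encodes a stress-activated kinase, and 1.11 for Ifrd1, a transcriptional coregulator. On the other side it was −2.96 for Tfap2c, −2.40 for Ramp2 and −2.30 for Dmrt1.

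The remaining 3 were not called on day 1 alone. Igfbp2, a binding protein for insulin-like growth factors, changed by 1.26, from −0.31 in EpiLCs to 0.96 on day 1, just under the limit of 1. Arap2, a GTPase-activating protein, changed by 1.78 and Septin3, a filament protein of neurons, by −1.52. Both had EpiLC and day 1 departures of opposite sign, from −1.12 to 0.66 for Arap2 and from 0.76 to −0.76 for Septin3. The 3-factor level of Septin3 on day 1 was 5.90, against 7.62 in the parental, 7.53 in the Blimp1, 6.65 in the Prdm14 and 7.72 in the Tfap2c line.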

How the results depend on the processing

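Counts of genes past the threshold moved with the processing more than the departures did: of the named genes, 1 turned sign, Epas1, to 0.36 with the mean of all probe sets. On day 1, 52 members were above and 35 below the sum. The counts were 23 and 11 with only the 10 day 1 arrays, 29 and 14 with median centring, and 9 and 7 under treat against 0.5. Below the sum they were 17 with the mean of all probe sets, 20 with no filter, 66 with a trend and robust prior and 75 with the Blimp1 and Prdm14 lines only, where 39 of the genes above and 26 of those below were shared with the main result. In EpiLCs, 2 members were above the sum; 1 was left with median centring, quantile normalization, no filter or treat, and 4 were called with the trend and robust prior. For the change from EpiLC to day 1, with 10 above and 4 below, the counts were 3 and 0 with median centring, 6 and 1 with no filter, 6 and 1 with a floor of 6, 3 and 1 under treat, and 25 and 19 with the trend and robust prior.

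With the replicate number as a replicate block, 59 and 49 members were called on day 1, and 8 were below for the change. Same-numbered arrays of different lines deviated together little, with correlations of −0.07 to 0.20 over 10 pairs of groups. More members were called on day 1 with the block than without it, so low correlations do not settle what same-numbered arrays share. Whether they were handled together was not tested.

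Leaving out 1 array at a time gave 20 to 48 members above and 12 to 30 below on day 1, 1 to 2 and 0 to 1 in EpiLCs, and 2 to 12 and 1 to 5 for the change. On day 1 the count above was 20 without Parental replicate 1 and 32 without Tfap2c-line replicate 1. The count below was 12 and 20 without Parental replicates 1 and 2, 22 without Blimp1-line replicate 1, 18 without Prdm14-line replicate 2, and 19 and 20 without Tfap2c-line replicates 1 and 2. The lone array of a group is then assumed to vary like the other groups.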

Other observations

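Some called genes outside the lists and the naming rule were picked out after their values were seen. H2-K1 and H2-Bl, which encode class I histocompatibility heavy chains, were both above the sum on day 1, with departures of 1.10 ± 0.22 and 1.20 ± 0.25 (SE). Hspa1b, an inducible heat shock protein, had a departure of 1.44. At a second readable probe set H2-K1 gave 0.93 ± 0.21 (SE) and Hspa1b 1.09 ± 0.27 (SE). A further readable probe set of H2-K1 gave only 0.395 ± 0.283 (SE). The calls of H2-K1 and H2-Bl were lost in most of the fits that each left out 1 day 1 array. Stmn2, a regulator of microtubules in neurons, was below the sum, at −1.24 for its main probe set and −1.37 ± 0.29 (SE) at another. Near-identical copies of the class I genes may share probes, so their values are uncertain.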
